A study of Mus musculus with 1 sample.

Results

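The genes described here encode the machinery that carries newly made proteins from the endoplasmic reticulum (ER) to and through the Golgi apparatus, as read on 1 array of parental RAW264.7 cells. Members were chosen by name alone, as every probe whose platform symbol begins with one of the stems Sec, Cop, Trappc, Cog, Tmed, Golga, Arf or Arl followed by the numbering of those families. This took 94 probes of 85 genes, out of 23473 gene probes and 19321 named genes. RAW264.7 is a macrophage-like mouse cell line. The parental cells are those from which the mutant lines were made, and were grown in RPMI-1640 with 10% fetal calf serum. The study's design sets them against lines treated with the mutagen ENU and sorted for failure to take up fluorescent peroxiredoxin, in order to find genes that uptake needs. The mutant lines were not analysed here, there are no replicates, and every value below is a description of 1 sample with no p-value.

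A protein bound for the cell surface, the lysosome or secretion enters the ER through the Sec61 channel, where signal peptidase trims it. Vesicles coated with COPII carry it forward to the Golgi, and vesicles coated with COPI return escaped ER proteins and carry traffic back through the Golgi. The small GTPase Arf1 recruits the COPI coat, while TRAPP and COG complexes and long golgin proteins catch arriving vesicles. Macrophages use this route to make scavenger receptors, Toll-like receptors, lysosomal enzymes and cytokines. The name rule also takes genes outside this route: Sec1 belongs to a fucosyltransferase family, the Sec14-like genes encode lipid-binding proteins, and several Arl proteins work at cilia, mitochondria or tubulin.

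Signal is the median pixel intensity of a spot in arbitrary units, with no background subtracted, and each member probe had 1 spot. It is read against limits of its own array. The blank limit, 22.98, is the mean plus 2 SD of 2464 empty spots (mean 20.6, SD 1.18). The receptor limit, 55.8, is the signal that 95% of the 1224 probes for smell and taste receptors do not exceed. Most of these receptors are not known to act in macrophages. A gene takes its highest probe. Signal depends on the probe as well as the transcript, so the levels of different genes are not ranked. All 8 macrophage markers, among them Spi1, Csf1r and Cd68, lay over the receptor limit. Of 9 markers of other cell types, 0 did so and 3 lay between the limits.

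The promoters of Sec31a and Sec31b are shown first, because these paralogs, both outer subunits of the COPII coat, lay on opposite sides of the limits. Each run is the 250 bases before the annotated RefSeq start (build GRCm38.p6), 5′ to 3′ on the strand of the gene. Capitals mark CCGGAAGT, a motif of the ETS family of transcription factors, which has members in macrophages. The Sec31a stretch is chr5:100416235-100416484 and the Sec31b stretch is chr19:44545849-44546098, both on the minus strand.
Sec31a: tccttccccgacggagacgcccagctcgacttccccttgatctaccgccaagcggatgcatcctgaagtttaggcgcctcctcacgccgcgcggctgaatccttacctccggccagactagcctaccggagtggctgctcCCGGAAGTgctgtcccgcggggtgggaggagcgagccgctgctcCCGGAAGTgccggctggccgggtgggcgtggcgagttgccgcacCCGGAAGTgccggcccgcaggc
Sec31b: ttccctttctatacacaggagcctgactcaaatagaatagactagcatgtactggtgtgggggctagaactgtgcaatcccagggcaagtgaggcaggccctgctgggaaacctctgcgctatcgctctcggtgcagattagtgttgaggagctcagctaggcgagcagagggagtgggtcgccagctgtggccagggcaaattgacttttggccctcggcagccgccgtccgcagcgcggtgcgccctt
The Sec31a stretch holds 3 copies of the motif and the Sec31b stretch holds 0. In the full 300-base windows, which run 50 bases past the start, the ratio of observed to expected CpG was 0.874 for Sec31a and 0.537 for Sec31b. The pair was picked by its signals, and any link of the motif or of CpG content to them was not tested.

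A motif of the ER stress response was looked for in the same windows. It is TGACGTGG, the core of the element bound by XBP1 and ATF6, the factors that raise ER capacity when unfolded proteins accumulate. It was present on either strand in 6 of the 72 members with a RefSeq promoter, or 8.33%, and in 108 of all 15111 named genes with one, or 0.715%. The 6 are genes of the COPI and COPII coats, an ER exit site scaffold and Arf1, and they are shown with 10 bases on each side, in capitals as TGACGTGG or, where it lies on the opposite strand, as CCACGTCA.
Copb1: ccgcccccttCCACGTCAgccaaggact
Copb2: cccggaagttCCACGTCAgtgggttggc
Sec16b: tctgtgtggcTGACGTGGcacggcagtt
Sec23a: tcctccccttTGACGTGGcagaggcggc
Sec24d: cccgggcgccTGACGTGGcactagcaac
Arf1: cggcaggcgcTGACGTGGctgccgtcag
These windows lie in GRCm38.p6 as follows: Copb1 at chr7:114254691-114254718 (minus strand), Copb2 at chr9:98563714-98563741 (plus strand), Sec16b at chr1:157506742-157506769 (plus strand), Sec23a at chr12:59011994-59012021 (minus strand), Sec24d at chr3:123267460-123267487 (plus strand) and Arf1 at chr11:59228229-59228256 (minus strand). The motif began 28, 7, 44 and 26 bases before the start in Copb1, Copb2, Sec16b and Sec24d, and 7 and 22 bases after it in Sec23a and Arf1. A match is a string of letters and not a shown binding site. The motif was chosen after the array values were known, and no test was run on its share.

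Signal from these genes was widespread. Of the 85 members, 83 lay over the blank limit, or 97.6%, against 72.8% of all named genes. Over the receptor limit lay 68 members, or 80%, against 42.8% of all named genes. The median signal was 199 over the members and 40.1 over all named genes. At more than 10 times the blank limit stood 39 members, or 45.9%, against 20.9% of all named genes. The 2 members not over the blank limit were Sec31b and Arl14, and 15 lay between the limits. Without Sec1, the Sec14-like genes, Arl2 and Arl3, whose products are not known to act between ER and Golgi, 75 of 77 members passed the lower limit and 65 the higher one. Arf6, Arl14 and Golga7, described below with roles elsewhere, were kept among the 77. So were Arl9, Arl11, Arl15 and Arl16, for which no role on the route is given here.

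**Figure D1:**
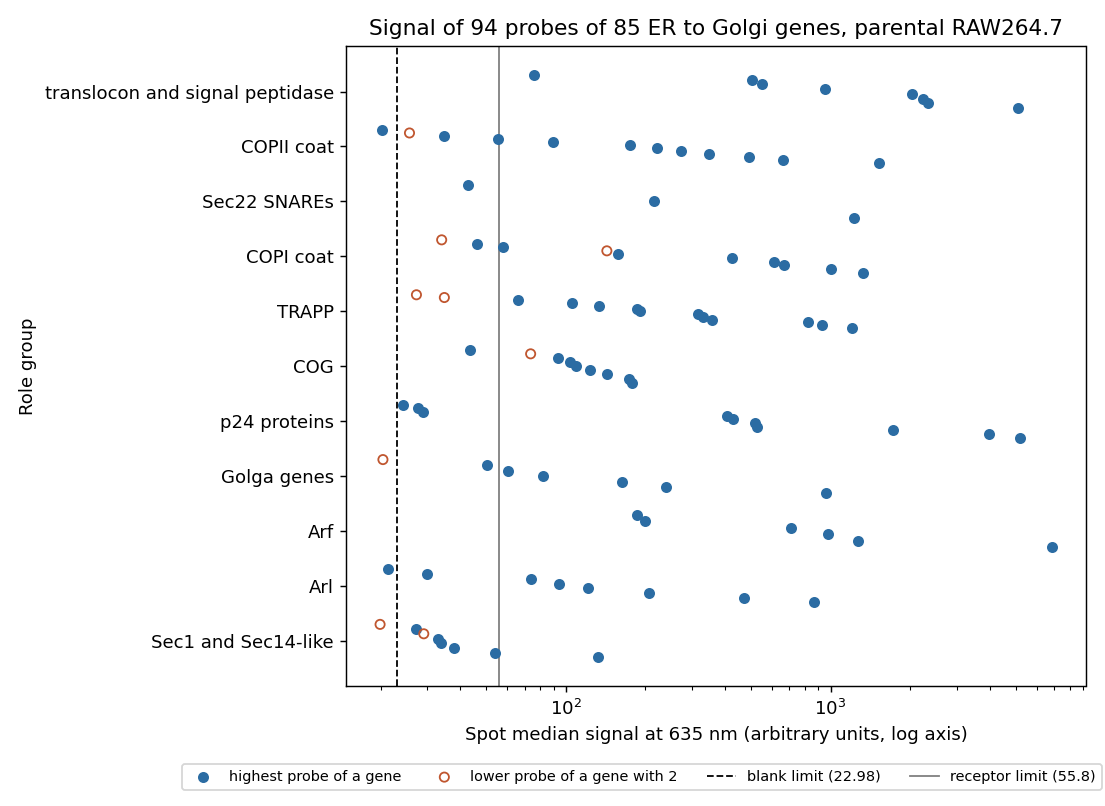
Signal of each of the 94 member probes (x axis, arbitrary units, log scale) by role group (y axis). Filled points are the highest probe of a gene, open points the lower probe of a gene with 2, the dashed line is the blank limit of 22.98 and the solid line the receptor limit of 55.8. The translocon, TRAPP and Arf groups have every filled point to the right of the solid line, while 5 of 6 filled points of the Sec1 and Sec14-like group lie between the lines.

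At the entry into the ER, all 8 translocon and signal peptidase genes under the name rule lay over the receptor limit. Their group median was 1496. The channel subunits Sec61a1, Sec61b and Sec61g read 956, 5096 and 2335. Sec61a2, a second gene for the channel's pore subunit, read 75.6, or 3.29 times the blank limit. Sec62 and Sec63, partners of the channel that help short and slow substrates enter, read 507 and 549. The catalytic subunits of signal peptidase, Sec11a and Sec11c, read 2235 and 2036. The spot of Sec11c stood at 1.22 times its local background of 1666.

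Of 11 COPII genes, 8 lay over the receptor limit, 2 between the limits and 1 below both. In the outer cage, Sec13, which also serves in the nuclear pore, read 1526 and Sec31a read 272, or 11.8 times the blank limit. Sec31b (probe M400003956) read 20.3, which is 0.882 times the blank limit, on a local background of 20.1. In the inner coat, Sec23b read 662 and its paralog Sec23a, the gene mutated in human cranio-lenticulo-sutural dysplasia, read 89.9. Both thus stood over the receptor limit.

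The cargo-binding Sec24 subunits fell into different signal classes. Sec24b, Sec24c and Sec24d lay over the receptor limit at 222, 493 and 175. Both probes of Sec24a lay between the limits, at 34.6 and 25.7. Sec16a, the large scaffold of ER exit sites, read 347, with 295 on the ground around its spot. Its shorter paralog Sec16b read 55.3, just under the receptor limit.

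Among the Sec22 SNAREs, Sec22b, which fuses vesicles between ER and Golgi and in phagocytes also brings ER membrane to phagosomes, read 1226 on a local background of 22.2. That is 55.3 times its surround, the highest such ratio among the members. The related Sec22a read 215 and Sec22c read 42.9, which lies between the limits.

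All 8 COPI genes exceeded the blanks and 7 exceeded the receptor limit, with a group median of 517. The subunits of the outer layer, Copa, Copb2 and Cope, read 611, 999.98 and 1324. In the inner layer Copb1 read 423 and the small subunit Copz1 read 670. Its paralog Copz2 read 46.4, or 2.02 times the blank limit, and lay between the limits. The gamma subunit has 2 genes. Both probes of Copg2 lay over the receptor limit, at 157 and 143, while those of Copg1 read 57.9 and 34, on different sides of it. The delta subunit Arcn1, which the name rule does not take, read 760.3.

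TRAPP subunits gave signal without exception, with 11 of 11 genes over the receptor limit and a median of 315. Of the core subunits, which activate the GTPase Rab1, Trappc1, Trappc4 and Trappc5 read 932, 1210.1 and 825. Trappc3 read 357, and Trappc2, whose human gene is mutated in an X-linked skeletal dysplasia, read 106. Trappc9 and Trappc10, the subunits particular to the TRAPPII form, read 134 and 186. The TRAPPIII subunits Trappc8, Trappc11, Trappc12 and Trappc13 read 191, 329, 66.3 and 315. The other probe of Trappc10 read 34.8 and that of Trappc11 read 27.3, so for these genes the call rests on 1 of 2 probes. The low Trappc11 probe carries a gene identifier that was not matched in the mouse gene table.

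The COG complex, the tether of vesicles moving back within the Golgi, read from 43.5 to 178 with a median of 116. Of its 8 genes, 7 lay over the receptor limit. Cog1, Cog3 and Cog4, 3 subunits of lobe A, read 143, 124 and 173. Cog2, the remaining one of that lobe, read 43.5 and lay between the limits. In lobe B, Cog5, Cog6 and Cog7 read 93.2, 178 and 109, and the probes of Cog8 read 104 and 73.7.

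The p24 proteins, encoded by Tmed genes, are membrane proteins of the ER and Golgi that sort cargo, including proteins anchored by GPI, into COPII vesicles. Of the 10 genes with a probe under the name rule, 7 lay over the receptor limit. Tmed2, Tmed9 and Tmed10 read 5216, 1723 and 3966, and Tmed3, Tmed4, Tmed5 and Tmed7 read 406, 517, 528 and 429. These 7 stood at 17.7 times the blank limit or more. The other 3, Tmed6, Tmed8 and Tmed11, lay between the limits at 24.3, 27.6 and 28.8, no more than 1.25 times the blank limit.

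**Figure D2:**
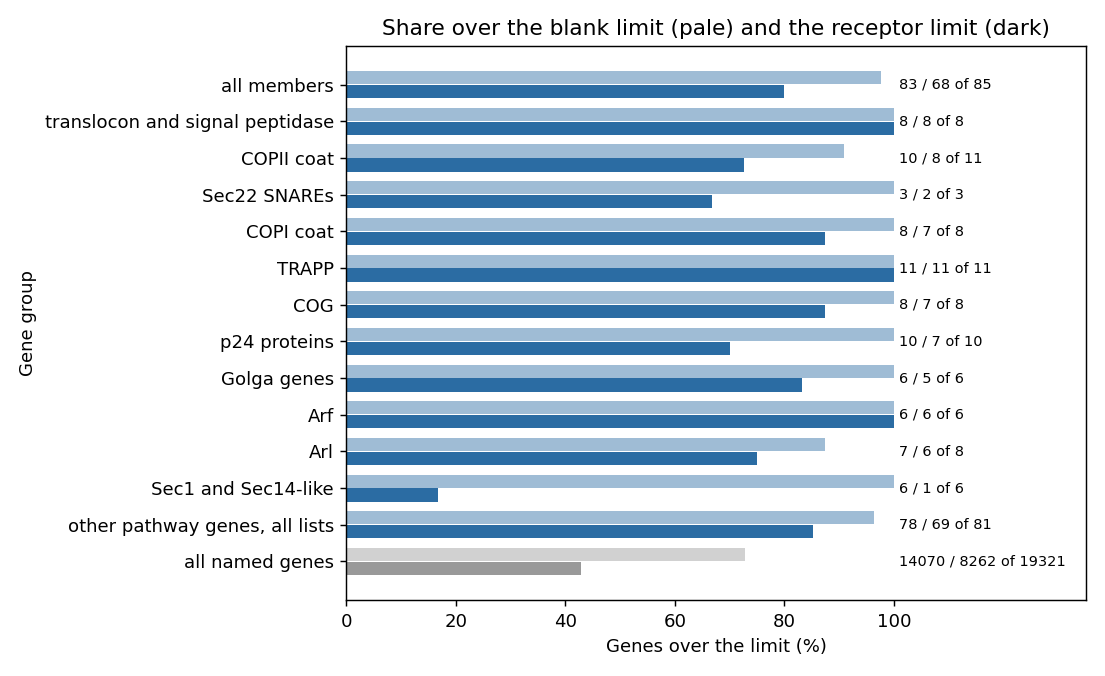
Share of genes (x axis, percent) over the blank limit (pale bars) and over the receptor limit (dark bars) in each role group, in the other pathway genes and, in grey, in all named genes. The numbers at the right give the genes over each limit and the genes measured. The dark bar reaches 80% for all members and 42.8% for all named genes, and the Sec1 and Sec14-like group has the shortest dark bar, at 16.7%.

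Of the 6 Golga genes, 5 lay over the receptor limit. Those for golgins, the coiled-coil tethers of the Golgi, had 4 of 5 over it. Golga2, the tether of the cis side, read 60.3, Golga3 read 82.3 and Golga5 read 239. Golga7, which is no such tether but a partner of the enzyme that palmitoylates Ras, read 964. Golga1 and Golga4 are tethers of the trans side that Arl1 recruits. Golga1 lay between the limits at 50.5. Golga4 had probes on either side of both limits, at 163 (probe M400002181) and 20.4 (probe M400015112), a ratio of 7.96.

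All 6 Arf genes lay over the receptor limit. Arf1 read 6857, or 298 times the blank limit, but its spot stood at 1.62 times its local background of 4244. Arf2, Arf3, Arf4 and Arf5, which with Arf1 act at the Golgi, read 199, 186, 976 and 711. Arf6, which works at the plasma membrane in endocytic recycling and phagocytosis, read 1271. Transcripts of Arf1, Arf2 and Arf3 are alike, as are those of Sec61a1 and Sec61a2 and of Copg1 and Copg2. Binding of one transcript to the probe of another was not tested, so each such reading is uncertain.

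Of the Arl family, 8 genes had a probe under the name rule, and 6 of these lay over the receptor limit. Genes of the family without such a probe, Arl6 among them, were not read. Arl1, which brings golgins to the trans-Golgi, read 867, and Arl3, which releases lipid-modified cargo into cilia, read 473. Arl11, Arl15 and Arl16 read 121, 74.2 and 94.5. Arl2, a regulator of tubulin folding and mitochondria, read 207, but the ground around its spot read 199.8, a ratio of 1.03. Arl9 lay between the limits at 29.9. Arl14, a regulator of MHC class II vesicles in human dendritic cells, read 21.3 (probe M200016160), or 0.926 times the blank limit.

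Of Sec1 and the Sec14-like genes, 1 of 6 lay over the receptor limit. That gene was Sec14l1, at 132. With Arl2 and Arl3, given above, it made 3 of the 8 genes set aside as outside the route, or 37.5%, against 42.8% of all named genes. Arf6, Arl14 and Golga7, whose described roles also lie elsewhere, were not among these 8, nor were Arl9, Arl11, Arl15 and Arl16. Sec14l2, Sec14l4 and Sec14l5 read 38, 33.8 and 32.8, the probes of Sec14l3 read 27.1 and 19.9, and those of Sec1 read 54.2 and 29.1. The group median was 35.9, against 40.1 over all named genes.

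In all, 9 members had 2 probes, and in 5 of them (Copg1, Golga4, Sec14l3, Trappc10 and Trappc11) the probes lay on different sides of a limit. The ratio of the higher to the lower probe ran from 1.1 in Copg2 to 12.1 in Trappc11. The ground beside the spots varied as well. Around the member spots the local background ran from 16.1 to 4244, against 13.1 to 26.1 around the blanks, and for 39 of the 94 member probes it exceeded the receptor limit. The median ratio of signal to local background was 2.56 over member probes and 1.43 over all gene probes. Of the 70 member probes over the receptor limit, 5 stood under 1.5 times their local background, namely those of Arl2, Copa, Sec11c, Sec16a and Sec24c. That is 7.14%, against 10.01% of the 9407 gene probes over that limit. The brightest spot next to Sec11c read 104, whereas Arl11 lay beside a spot of 12858 and had a local background of 26.8. What raised the local background was not tested.

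**Figure D3:**
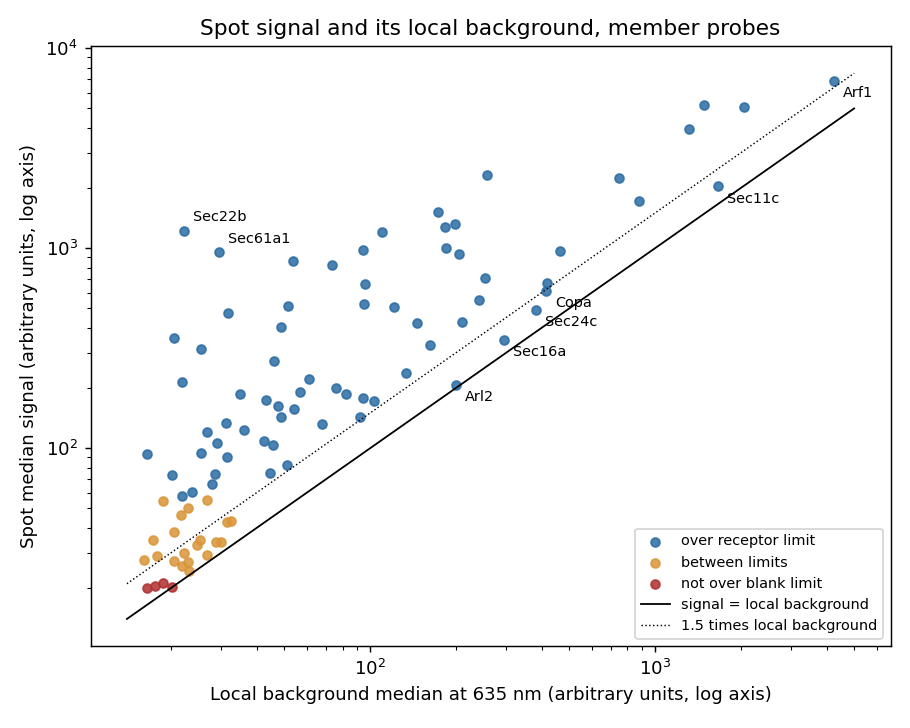
Spot signal (y axis) against the local background around the same spot (x axis), both in arbitrary units on log scales, for the 94 member probes coloured by their place against the limits. The solid line marks equality and the dotted line 1.5 times the background. Arl2 lies on the solid line at 207 over 199.8, and Sec22b lies farthest above it at 1226 over 22.2.

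Other pathway genes outside the name rule, which here means genes of the same route and 10 that sense or answer ER load, were read from lists of 85 symbols, of which 81 had a named probe. Of these, 78 lay over the blank limit, or 96.3%, against 72.8% of all named genes, and 69 over the receptor limit, or 85.2%, against 42.8%. Without the 10 genes of ER load, 70 of 71 genes of the route passed the lower limit, or 98.6%, and 63 the higher one, or 88.7%. The GTPases that start the COPII coat, Sar1a and Sar1b, read 859 and 2279, and their exchange factor Preb read 363. Probes of Klhl12, listed with them, read 114 and 44, on different sides of the receptor limit. Among cargo receptors Lman1 and its partner Mcfd2 read 1077 and 230.1, and 13 of 15 passed the receptor limit. The local background of Lman1 was 871. The KDEL receptors, which return ER residents, gave 1481 for Kdelr1 and 367 for Kdelr2, while Kdelr3 lay between the limits at 25.2. Of 19 SNAREs and tethers 17 lay over the receptor limit, with probes of Use1 at 937 and 83.2. Probes lay on different sides of a limit in Stx18, at 293 and 21.6, and in Gorasp1, at 109 and 36.6. Bnip1, counted among the 17, read 384 on a local background of 390.2. Of 10 genes that work with COPI or control Arf, 9 passed, among them the Arf exchange factor Gbf1 at 166. The 3 further TRAPP genes read from 786 to 1209.7. In the translocation list 14 of 16 passed, with a median of 1444. Srprb and Tram2 of that list lay between the limits, at 54.7 and 25.4. Ssr3, also of that list, read 1794 on a local background of 1874.

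Of the 10 genes that sense ER load or answer it, 6 lay over the receptor limit. Xbp1 read 2006, Atf4 read 2931, Atf6 read 178 and Atf6b read 144. Ern1, the ER sensor that splices the Xbp1 transcript, read 21.1, under the blank limit. Creb3 and Creb3l1, related factors bound to the ER membrane, read 539 and 134. Creb3l2 and Creb3l3 lay between the limits at 28.6 and 29.8, and Creb3l4 did not pass the blank limit at 18.6. The third gene of the lists not over the blank limit was Mia2, a cargo adaptor of ER exit sites, at 18.2, while its relative Mia3 had probes at 350.4 and 31.1.

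Promoter composition is given here by signal class. Among the 57 members over the receptor limit that had a RefSeq promoter, the median ratio of observed to expected CpG was 0.868, against 0.788 for all 6615 named genes over that limit. It was 0.701 for the 13 members between the limits, against 0.505 for all named genes there. The 2 members not over the blank limit stood at 0.537 (Sec31b) and 0.193 (Arl14), against a median of 0.312 for all named genes in that class. A ratio of at least 0.6, a common mark of a CpG-rich promoter, was found in 53 of 57, 7 of 13 and 0 of 2 members by falling signal. For all named genes the shares in the same classes were 75.6%, 42.7% and 26.8%, so they fell with signal there too. Over all classes such a ratio was found in 60 of 72 members, or 83.3%, against 52.9% of all named genes. The exceptions over the receptor limit were Arl11, Copa, Sec61g and Sec62, at 0.247, 0.497, 0.509 and 0.252.

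**Figure D4:**
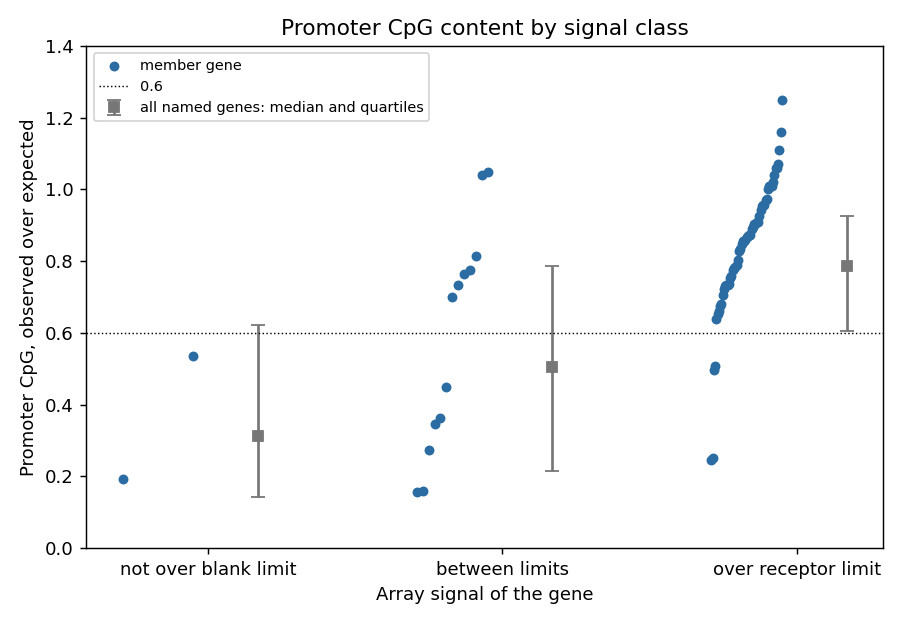
Ratio of observed to expected CpG in the 300-base RefSeq promoter (y axis) by signal class of the gene (x axis). Blue points are the 72 member genes, grey squares with bars the median and quartiles of all named genes, and the dotted line is 0.6. In the class over the receptor limit 53 of 57 members lie above the dotted line, and 75.6% of all named genes in that class reach it.

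The ETS motif CCGGAAGT shown in Sec31a was present in 12 of 72 member promoters, or 16.7%, and in 5.61% of all promoters. It was found in 10 of the 57 members over the receptor limit, or 17.5%, against 9.75% of all named genes over that limit. Between the limits it was found in 2 of 13 members, Golga1 and Sec1, or 15.4%, against 3.18% of all named genes there. The carriers over the receptor limit included Cog3, Cog7 and Cog8 of the COG complex, Trappc3, Trappc10 and Trappc12 of TRAPP, and Sec13, Sec24c and Sec31a of COPII. Copb2 carried both this motif and TGACGTGG. Among other pathway genes TGACGTGG was present in 4 of 67, or 5.97%, namely Gbf1, Kdelr3, Scfd1 and Stx5a. The GC box GGGCGG was present in 70.8% of members and 50.2% of all promoters, and the CCAAT box in 41.7% and 38.4%. The TATA box TATAAA was present in 5.56% and 12.3%. These shares also differed by signal class. Over the receptor limit the GC box was present in 77.2% of members and 64.1% of all named genes, and the TATA box in 5.26% and 7.53%. Between the limits the GC box was present in 53.8% and 46.1%, and the TATA box in 0% and 13.8%. Over all classes the CRE TGACGTCA, which shares its first 6 letters with TGACGTGG, was present in 1.39% and 2.55%. The NRF1 motif was present in 2.78% and 1.46%. The longer ATF6 elements known as ERSE and ERSE-II, each of which contains the CCAAT box on one strand, were found in 0 of the 72 members, and in 0.152% and 0.0463% of all promoters.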

How the data were processed

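One RNA sample was read on 1 one-colour array. Per the labels' protocols, RNA was amplified to amino allyl RNA, coupled to Cy5 and handled by the array maker's protocol. Per the file headers, the deposited intensity values are spot and local background medians at 635 nm, combined from 3 scanner gains. The authors' table of processed intensity has a median of 25. Its values follow the spot median minus the blank mean times about 0.486 (2987 probes over 200), so they are linear with no direction, and why that scale was chosen stays unknown.

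Of 23473 gene probes, 20690 had 1 symbol in the platform annotation, 0 had several and 2783 had none. Members were taken by that platform symbol. All genes were then counted and named by the symbol that their gene identifier has in a RefSeq table of GRCm38.p6, where 20556 probes matched, and otherwise by the platform symbol. No bad-flag spots were found (0). The blank limit leaves out 5% of the 2736 blanks at each end. Normexp (limma 3.58.1, R 4.3.3, offset 50), local subtraction, other limits and other probe rules were alternatives. Promoters are the first listed per gene, and 13 members had none. Motifs were searched on both strands in 300 bases. Protein sequences were not used here.

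Members and lists were chosen with earlier results of these data known. All members are named, and of the other lists all genes not over the blank limit and examples. The promoter motifs, and the count without spots under 1.5 times their background, were added after the values were seen. The number of arrays limits the precision.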

Additional observations from a re-analysis of the deposited data

How the results depend on the processing

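Counts of members kept within 1.5 times the reported count under every alternative run. Members over the blank limit, 83 as reported, numbered 83 with 1 or 3 SD, without trimming and with the blanks of each block. They also numbered 83 with any value in the authors' deposited table. That table follows the same spot and blank readings, so it is no separate check. The count was 82 with the 99th percentile of the blanks. It was 81 with the lowest probe of a gene, against 70.9% of all named genes, and 80 with local background subtracted or with normexp. The calls lost were Tmed6 at the 99th percentile, Golga4 and Sec14l3 with the lowest probe, and Sec14l3, Sec14l4 and Tmed6 under either background correction, where the share of all named genes was 63.2%. Members over the receptor limit, 68 as reported, numbered 70 with either background correction, against 41.4% of all named genes. Either correction lost Arl2 and gained Golga1, Sec1 and Sec16b. Members over this limit numbered 64 with the lowest probe, against 40.4% of all named genes. They numbered 74 with the 90th percentile of receptor probes and 51 with the 99th, against 49.6% and 27.6% of all named genes. Without spots under 1.5 times their local background, an alternative chosen after seeing the data, 71 members exceeded the blank limit and 63 the receptor limit, against 49.3% and 38.6% of all named genes. With the other blank limits, the background corrections, the authors' table and the lowest probe, other pathway genes over the receptor limit ran from 65 to 69. Role groups with every gene over both limits ran from 2 to 4 there. Neither count was run with the 90th or 99th percentile of receptor probes, or without spots under 1.5 times their local background. The 90th percentile gained Cog2, Copz2, Golga1 and Sec22c, each the only gene of its group not over the reported limit. The 99th lost, among others, Sec61a2, Trappc2, Trappc9 and Trappc12, from groups complete as reported. The name rule applied to updated in place of platform symbols gave the same 85 members. The alternative without badly flagged spots was not run, because there were 0. No paired analysis was possible because there is 1 sample. Readings under the receptor limit are limited by signal over background, and a poor probe and a scarce transcript cannot be told apart there.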

Other observations

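Genes whose names resemble the families but lie outside the name rule gave mixed readings. Golga7b, the paralog of Golga7, read 22.6, under the blank limit of 22.98. Arl2bp, which binds Arl2, read 96.1 and Arl14ep, which binds Arl14, read 215, both over the receptor limit of 55.8, while Arl14 itself was not over the blank limit. In the authors' deposited table the values of 90 of the 94 member probes are filled, against 16689 of all 23473 gene probes. The 4 empty member cells are the probes of Arl14 and Sec31b, the lower probe of Golga4 and the lower probe of Sec14l3. These 4 also lay at or under the blank limit in the scanner values. The authors' values follow the spot median minus the blank mean, so this match is no separate check.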
